A study of Mus musculus with 18 samples.

Results

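The comparison described here set 3 libraries of mouse mammary epithelial organoids labelled Torin D12 directly against 3 labelled Torin D6, which are 6 of the 18 libraries of the series. Members were chosen by their labels alone. The 3 DMSO D6 and 3 DMSO D12 libraries gave the level of each arm without the drug, so 12 libraries entered the fit. Organoids are small three-dimensional cultures that grow from purified epithelial cells. Here they came from mammary glands of nulliparous wild type C57BL/6 mice of about 15 weeks and grew in Matrigel droplets in EpiCult-B medium, with 5% FBS on the first day and more Matrigel laid on the droplets on day 12. All 12 cultures were collected at 18 days. The Torin groups received 100 nM Torin 1 and the DMSO groups received the solvent at 1:1000.

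The names D6 and D12 do not fix the length of treatment. The sample titles and protocol make D12 the longer exposure, with 12 days of drug against 6, while the text of the series has these lengths the other way round. The batch tag also differs between the arms, but it repeats the number of days in the sample titles. Whether it records a separate batch is not known. The arm, the batch, the start of treatment and its length therefore cannot be told apart, and the arms are called D6 and D12 below. The series text names 3 mice, but the labels do not tie a library to a mouse, so p-values measure the spread between these libraries, which may be technical. The same text counts more Torin experiment samples than the 12 used here.

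Torin 1 blocks the kinase mTOR, which sits in a pair of complexes. mTOR complex 1 (mTORC1) is switched on by amino acids and growth factors and drives translation, ribosome production, lipid synthesis and glycolysis, partly through the transcription factors HIF1A and SREBP, while it holds back autophagy and lysosome genes. mTOR complex 2 activates AKT. The mammary epithelium has an inner luminal layer, with hormone-sensing cells and secretory progenitors, and an outer basal or myoepithelial layer that contracts and lays down basement membrane.

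The 12 libraries held 23239364 to 28910688 counts and differed little in depth. The first principal component of log2 CPM (counts scaled to a common library total) carried 43.8% of the variance and ran from the DMSO libraries through Torin D12 to Torin D6, and the second carried 14.5%. The third Torin D6 library stood apart: its Spearman correlations with the other Torin D6 libraries were 0.968 and 0.963, and those of every other pair within a group were 0.985 or more. Ribosomal protein genes took 3.51% of its counts and 3.43% in the third Torin D12 library, against 2.08% to 2.73% in the other 10. Without the third Torin D6 library the direct comparison below gave 1999 higher and 1668 lower genes, and without the third Torin D12 library 1945 and 1973. Transferrin (Trf), a secreted iron carrier and one of the most abundant transcripts, took 4.72% to 5.26% of counts in DMSO libraries, 2.91% to 3.45% in Torin D12 and 0.876% to 1.35% in Torin D6.

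**Figure D1:**
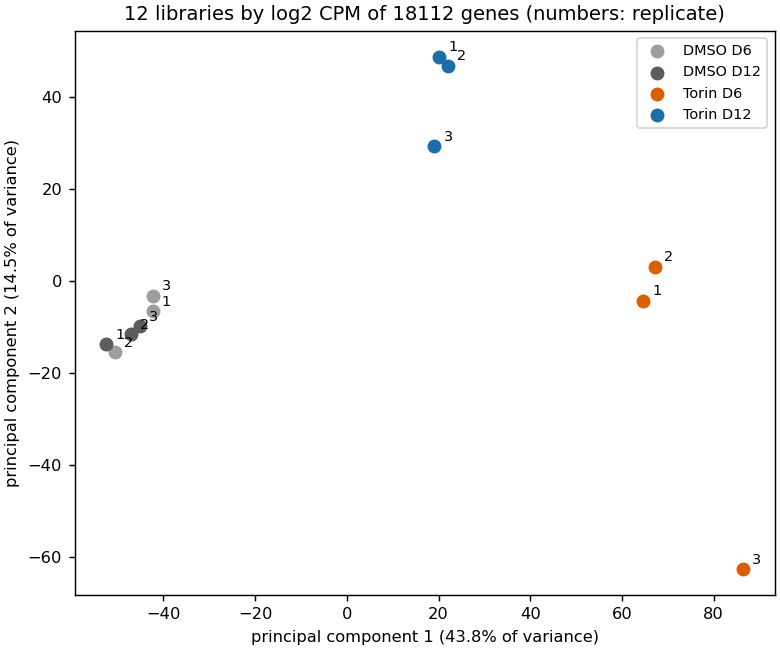
The 12 libraries on principal components 1 (x axis, 43.8% of the variance) and 2 (y axis, 14.5%) of log2 CPM, one point per library, numbered by replicate and coloured by group. The 6 DMSO libraries lie together on the left, Torin D12 lies between them and Torin D6 on component 1, and the third Torin D6 library lies far from the other two on component 2.

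Of 18112 genes tested, 1827 (10.1%) were higher in Torin D12 than in Torin D6 and 1902 (10.5%) were lower, 3729 (20.6%) in all, at an adjusted p under 0.05 in edgeR's quasi-likelihood test. At least 2-fold differences were found for 647 of the higher and 609 of the lower genes. The levels of the 3 libraries of one Torin group did not overlap those of the other for 5889 genes (32.5%). Against DMSO of the same arm the ranges did not overlap for 48.5% of genes in D6 and 43.7% in D12, and between DMSO D12 and DMSO D6 for 12.2%. The arms without the drug were close: the same test called 0 genes higher and 1 gene lower (0.00552%) in DMSO D12 than in DMSO D6, with 732 genes at an unadjusted p under 0.05, while DESeq2 called 13. That gene, the predicted gene Gm45140, stood at 5.28 to 11.5 CPM in DMSO D6, at 0, 0.106 and 0 CPM in DMSO D12 and at 5.35 to 9.66 CPM in all 6 Torin libraries. Against its own DMSO, Torin changed 7088 genes (39.1%) in the D6 arm and 4592 genes (25.4%) in the D12 arm. The gap was narrower when each arm was fitted alone. That fit gave 2617 higher and 3070 lower genes in the D6 arm and 2449 and 2737 in the D12 arm. The difference between these Torin effects, tested as an interaction, passed for 1917 genes (10.6%), of which 911 (5.03%) had the more positive log2 effect in D12 and 1006 (5.55%) the more negative. The direct comparison, the arm effects and the interaction share Torin libraries, so a gene's values in them are set side by side below and not taken as separate evidence.

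Gene lists for 36 programmes and cell types held 759 tested members. Of the lists with at least 16 tested members, interferon response, fibroblast, hypoxia and antigen presentation genes had most of their members higher in Torin D12. The lists of p53 targets, cholesterol synthesis, inflammatory response, and matrix proteases and inhibitors had most of their members lower. Mitosis genes had no call in either direction. In bulk libraries, fewer cells of a type and less RNA per cell cannot be told apart. The median log2 fold change over all genes tested was -0.02, and each list's counts below are to be read against the 10.1% of all genes called higher and the 10.5% called lower. Counts of 3 or fewer in 1 direction of a list were not stable: leaving out single libraries moved some of them to 0 or to as many as 6.

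**Figure D2:**
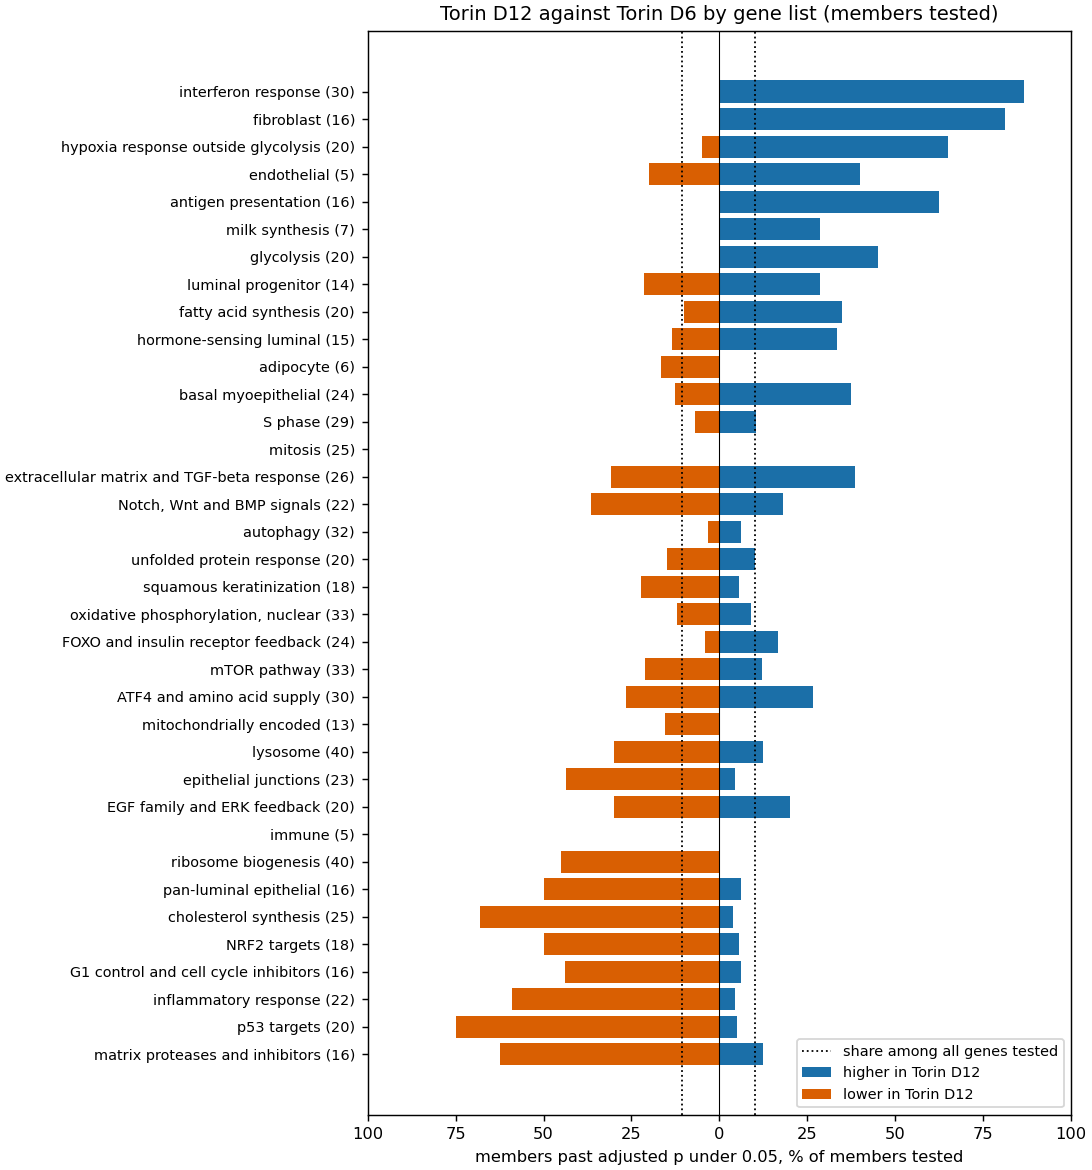
Share of each gene list's tested members (number in brackets) that was higher in Torin D12 (right) or lower in Torin D12 (left) at an adjusted p under 0.05, in percent, with lists in order of their median log2 fold change. Dotted lines mark the shares among all genes tested, 10.1% higher and 10.5% lower. The interferon bar reaches 26 of 30 members on the right and the p53 target bar 15 of 20 on the left.

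Genes that low oxygen and the transcription factor HIF1A switch on fell far below DMSO in both Torin arms, and less far in Torin D12. Of 20 hypoxia genes outside glycolysis, 13 were higher in Torin D12 than in Torin D6 and 1 was lower, with a median log2 fold change of 0.76. Their summed level was 4142 to 5217 CPM in DMSO D6, 5144 to 5283 CPM in DMSO D12, 772 to 865 CPM in Torin D6 and 1294 to 1472 CPM in Torin D12. So the D12 libraries stood above the D6 libraries without overlap, and both lay below every DMSO library. Against their own DMSO, 19 of the 20 fell in Torin D6 (19.3% of all genes fell) and 20 of 20 fell in Torin D12 (14.6% of all genes fell). Between DMSO D12 and DMSO D6 the list's median log2 fold change was 0.18, in the same direction, though 0 members passed. The interaction passed for 11 of 20 with the more positive effect in D12 and 1 with the more negative. The shares of all genes were 5.03% and 5.55%, and the list's median interaction was 0.67.

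Ndufa4l2, a mitochondrial protein made under low oxygen, had the largest difference of the genes selected by size. It stood at 0.339, 0.1502 and 0.3798 CPM in Torin D6 and at 20.2, 14.1 and 22.3 CPM in Torin D12, against 107 to 147 CPM in the DMSO libraries (log2 fold change 5.99, SE 0.27, adjusted p = 1.38e-07 between the Torin groups). It was thus almost off in every Torin D6 library and partly expressed in every Torin D12 library. Slc16a3, the transporter that exports lactate from glycolytic cells, stood at 2.51, 2.82 and 2.85 CPM in Torin D6 and at 46.3, 41.4 and 39.1 CPM in Torin D12, and at 124 to 202 CPM with DMSO (log2 fold change 3.95, SE 0.13, adjusted p = 4.66e-08). Mgarp, a mitochondrial protein that responds to low oxygen, stood at 0.136, 0.188 and 0.07595 CPM in Torin D6, at 3.54, 3.601 and 3.29 CPM in Torin D12 and at 14.3 to 19.3 CPM with DMSO (log2 fold change 4.66, SE 0.22, adjusted p = 1.55e-07). All 3 genes kept the same order, with Torin D6 lowest, Torin D12 in the middle and DMSO highest, and no Torin library reached a DMSO library. Ak4, an adenylate kinase of the mitochondrion, had that order too, at 9.34 to 10.2 CPM in Torin D6, 29.7 to 32.6 CPM in Torin D12 and 101 to 119 CPM with DMSO (log2 fold change 1.68, SE 0.08, adjusted p = 1.38e-07). Ddit4, an inhibitor of mTORC1 that stress and low oxygen induce, was the 1 member that was lower in Torin D12, at 35.98, 29.3 and 35.8 CPM against 60.8, 58.3 and 57.2 CPM in Torin D6 and 109 to 148 CPM with DMSO (log2 fold change -0.80, SE 0.11, adjusted p = 2.84e-04).

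Glycolysis genes showed a smaller difference. Of 20 members, 9 were higher in Torin D12 and 0 lower, with a median of 0.30. The DMSO groups differed in the same direction. Their summed levels were 18581 to 22169 CPM in DMSO D6 and 22262 to 23316 CPM in DMSO D12 (median log2 fold change 0.17), though 0 members passed. The interaction passed for 6 of 20, all with the more positive effect in D12 (5.03% of all genes), with a median of 0.10. Aldoc, an aldolase, was at 146, 153 and 116 CPM in Torin D6 and at 592, 613 and 415 CPM in Torin D12, a range that overlapped the 536 to 683 CPM of the DMSO libraries (log2 fold change 1.97, SE 0.16, adjusted p = 7.73e-06). Pfkl, a phosphofructokinase of the committing step, was at 288, 319 and 223 CPM and 819.7, 786 and 622 CPM in the same order, against 856 to 1038 CPM with DMSO (log2 fold change 1.42, SE 0.14, adjusted p = 2.99e-05). The other members that passed beside Slc16a3 were Gpi1, Pfkp, Pfkfb3, Aldoa, Pgk1 and Pdk1, between 0.37 for Gpi1 and 0.80 for Pdk1 on the log2 scale.

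HIF1A binds the letters ACGTG, so promoters of these genes were read from 250 bases before to 50 bases after each start in RefSeq (GRCm38.p6, an older build than the GRCm39 of the submitters' notes). At least 1 match on either strand, in any window listed for a gene, was found for 15 of 18 hypoxia genes with a promoter in the table (83.3%) and 13 of 20 glycolysis genes (65.0%), against 21.8% of 27025 genes. A match is a description of the letters and not evidence of binding. The 2 promoters below belong to members with large differences and are written 5′ to 3′ with the motif in capitals, as ACGTG or, on the other strand, CACGT. Slc16a3 lies at chr11:120948817-120949116, plus strand, and Mgarp at chr3:51396498-51396797, minus strand.
Slc16a3: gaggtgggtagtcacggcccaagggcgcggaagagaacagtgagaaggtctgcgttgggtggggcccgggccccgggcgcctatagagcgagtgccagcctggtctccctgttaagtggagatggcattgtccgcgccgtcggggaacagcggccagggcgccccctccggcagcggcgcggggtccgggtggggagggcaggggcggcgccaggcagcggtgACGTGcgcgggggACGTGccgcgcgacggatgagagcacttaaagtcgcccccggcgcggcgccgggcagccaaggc
Mgarp: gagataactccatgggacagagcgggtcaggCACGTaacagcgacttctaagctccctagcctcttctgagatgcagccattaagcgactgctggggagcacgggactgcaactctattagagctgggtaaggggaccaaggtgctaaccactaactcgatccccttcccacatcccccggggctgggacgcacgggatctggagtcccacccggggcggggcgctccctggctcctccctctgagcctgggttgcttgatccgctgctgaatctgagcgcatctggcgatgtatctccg

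Interferon-stimulated genes encode antiviral effectors and their regulators, and many epithelia express them at a low level without infection. They were the most one-sided list: 26 of 30 were higher in Torin D12 than in Torin D6 and 0 lower, with a median log2 fold change of 2.03. Their summed level was 333 to 402 CPM in Torin D6 and 547 to 849 CPM in Torin D12, with 1092 to 1427 CPM in DMSO D6 and 1050.1 to 2402 CPM in DMSO D12. The first DMSO D12 library held the highest of these sums and the first Torin D12 library the lowest of its group, so the sums within a group were spread more widely than those of the hypoxia genes. Against DMSO, 29 of 30 fell in Torin D6 (19.3% of all genes) and 20 of 30 in Torin D12 (14.6% of all genes). Between DMSO D12 and DMSO D6 the list's median log2 fold change was 0.31, in the same direction, though 0 members passed. The interaction passed for 6 of 30, all with the more positive effect in D12 (5.03% of all genes), with a median of 1.65.

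Ifit1, which binds foreign RNA, was at 2.27, 1.31 and 5.05 CPM in Torin D6 and at 11.5, 43.4 and 49.5 CPM in Torin D12, against 43.4 to 152 CPM with DMSO (log2 fold change 3.600, SE 0.69, adjusted p = 0.00329). Ifit3, its partner, was at 0.916, 0.451 and 3.42 CPM and 6.54, 31.05 and 26.7 CPM, against 23.3 to 95.4 CPM with DMSO (log2 fold change 3.76, SE 0.81, adjusted p = 0.00647). The Torin groups did not overlap for either gene, and the lowest Torin D12 library was the first for both. Ifit3 has a near-identical neighbour, Ifit3b, so the split of counts between them is uncertain. Irf7, the transcription factor that amplifies the interferon response, was at 4.104, 3.79 and 5.01 CPM in Torin D6 and 15.1, 31.3 and 28.3 CPM in Torin D12, all below the 54.2 to 198 CPM of DMSO (log2 fold change 2.53, SE 0.43, adjusted p = 0.00160). Rtp4, an interferon-induced chaperone, was at 15.5, 12.4 and 15.5 CPM and 50.2, 68.9 and 69.6 CPM (log2 fold change 2.12, SE 0.31, adjusted p = 5.59e-04). Cmpk2, a nucleotide kinase, was at 1.49, 1.58 and 1.86 CPM and 4.22, 15.5 and 12.8 CPM (log2 fold change 2.72, SE 0.47, adjusted p = 0.00177). Ifi47, an interferon-induced GTPase, was at 1.59, 1.13 and 1.71 CPM and 7.95, 12.5 and 13.5 CPM, against 14.5 to 30.2 CPM with DMSO (log2 fold change 2.93, SE 0.30, adjusted p = 4.03e-05).

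Genes that present antigen leaned the same way, with 10 of 16 higher in Torin D12 and 0 lower (median 0.50). The interaction passed for 5 of 16, all with the more positive effect in D12 (5.03% of all genes). H2-Ab1, a chain of the class II complex, was at 0.543, 0.225 and 0.418 CPM in Torin D6, 4.298, 5.497 and 5.25 CPM in Torin D12 and 48.7 to 70.7 CPM with DMSO (log2 fold change 3.64, SE 0.25, adjusted p = 2.61e-06). Both Torin groups lay far under DMSO, and the D6 libraries were close to 0. Psmb8, a subunit of the immunoproteasome, was at 41.3, 40.5 and 47.96 CPM and 75.2, 80.8 and 93.9 CPM, against 151 to 219.5 CPM with DMSO (log2 fold change 0.95, SE 0.12, adjusted p = 2.73e-04). H2-DMb1, which helps load class II molecules, was at 17.98, 19.98 and 20.01 CPM and 29.5, 30.5 and 26.8 CPM (log2 fold change 0.58, SE 0.08, adjusted p = 4.58e-04). No immune cell marker passed, with 0 higher and 0 lower of 5 tested, and 1 was lower without the third Torin D12 library. Their summed level was 6.42 to 20.7 CPM in Torin D6, 4.02 to 11.3 CPM in Torin D12 and 8.83 to 14.3 CPM and 11.7 to 15.6 CPM in DMSO D6 and D12. Adgre1, Cd3e, Nkg7 and Ncr1, which mark macrophages, T cells and natural killer cells, had 0 counts in all 12 libraries.

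The interferon-stimulated response element has the core GAAANNGAAA, the site of the STAT and IRF factors. It was found on either strand in the promoters of 12 of 22 interferon list genes with a promoter in the table (54.5%), against 3.99% of 27025 genes. Ifit1, Ifit3 and Isg15, which encodes a small ubiquitin-like modifier, are shown because their matches are clustered. Matches are in capitals, overlapping ones run together, and TTTCNNTTTC is the same core on the other strand. Ifit1 lies at chr19:34640639-34640938, plus strand, Ifit3 at chr19:34583279-34583578, plus strand, and Isg15 at chr4:156200769-156201068, minus strand (GRCm38.p6).
Ifit1: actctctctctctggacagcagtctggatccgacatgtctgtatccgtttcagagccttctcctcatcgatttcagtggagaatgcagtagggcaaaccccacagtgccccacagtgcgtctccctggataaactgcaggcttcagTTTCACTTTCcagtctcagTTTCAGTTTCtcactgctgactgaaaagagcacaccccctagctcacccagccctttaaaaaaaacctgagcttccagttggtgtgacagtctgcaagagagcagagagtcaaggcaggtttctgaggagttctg
Ifit3: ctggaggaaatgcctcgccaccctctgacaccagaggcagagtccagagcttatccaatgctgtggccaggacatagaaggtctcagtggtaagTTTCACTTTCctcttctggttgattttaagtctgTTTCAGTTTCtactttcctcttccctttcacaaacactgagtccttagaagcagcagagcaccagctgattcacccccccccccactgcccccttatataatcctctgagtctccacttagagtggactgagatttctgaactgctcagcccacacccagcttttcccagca
Isg15: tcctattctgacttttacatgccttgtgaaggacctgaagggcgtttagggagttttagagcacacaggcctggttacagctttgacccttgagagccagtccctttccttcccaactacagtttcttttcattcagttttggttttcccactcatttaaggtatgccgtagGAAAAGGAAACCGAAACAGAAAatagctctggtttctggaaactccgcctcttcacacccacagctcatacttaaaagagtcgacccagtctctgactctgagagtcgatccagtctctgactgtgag

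**Figure D3:**
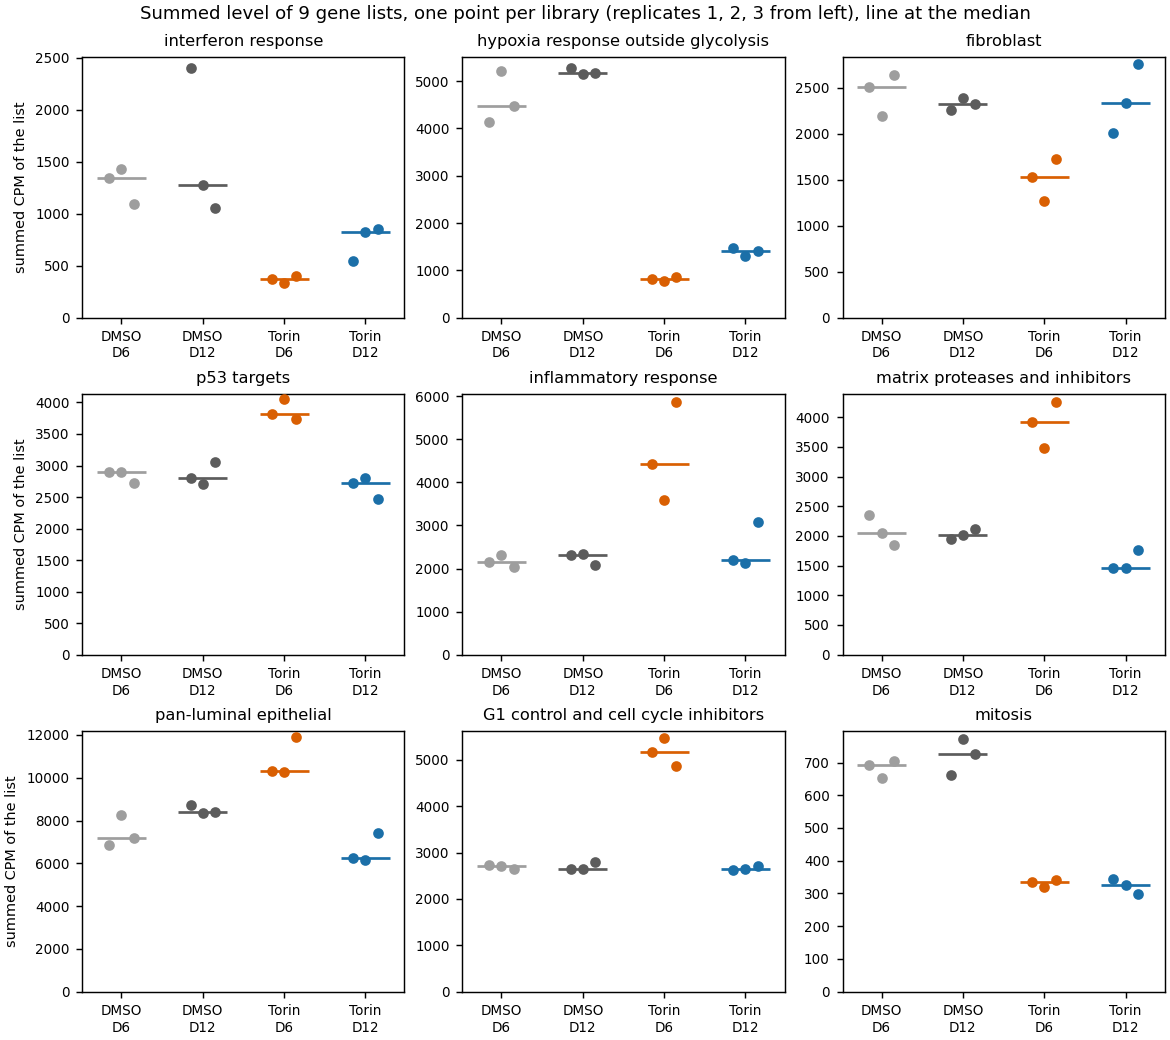
Summed CPM (y axis, linear from 0) of 9 gene lists in each library, replicates 1 to 3 from left to right within a group, with a line at the group median. Hypoxia and interferon sums lie below DMSO in both Torin groups and are higher in D12, and fibroblast sums are lowest in Torin D6. The p53, inflammatory, protease, pan-luminal and G1 sums are highest in Torin D6, and mitosis sums lie below DMSO in both Torin groups.

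Fibroblast markers are collagens and receptors of stromal cells, which can travel with purified epithelium. None was lower in Torin D12: 13 of 16 were higher and 0 lower, with a median of 1.33. Their summed level was 1269 to 1723 CPM in Torin D6, 2003 to 2759.5 CPM in Torin D12 and 2192 to 2641 CPM and 2258 to 2392 CPM in DMSO D6 and D12. The Torin D12 sums thus overlapped those of DMSO, and the Torin D6 sums lay below all others. Whether the number of stromal cells moved was not tested. Col1a1, a chain of type I collagen, was at 102, 90.97 and 84.2 CPM in Torin D6 and 256, 319 and 326 CPM in Torin D12, against 342 to 505 CPM with DMSO (log2 fold change 1.702, SE 0.15, adjusted p = 1.82e-05). Col1a2, its partner chain, was at 93.9, 87.7 and 81.5 CPM and 234, 327 and 301 CPM, against 222 to 325 CPM (log2 fold change 1.71, SE 0.15, adjusted p = 1.16e-05). Pdgfrb, a receptor of mural and stromal cells, was at 17.9, 16.5 and 15.6 CPM in Torin D6, below the 23.4 to 32.4 CPM of DMSO, and at 37.5, 54.7 and 48.5 CPM in Torin D12, above it (log2 fold change 1.49, SE 0.15, adjusted p = 3.32e-05).

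The extracellular matrix and TGF-beta list split, with 10 of 26 members higher in Torin D12 and 8 lower. Tgfbi, a secreted matrix protein that TGF-beta induces, was at 1.42, 1.62 and 1.101 CPM in Torin D6, 8.75, 7.43 and 11.2 CPM in Torin D12 and 37.9 to 46.9 CPM with DMSO (log2 fold change 2.72, SE 0.18, adjusted p = 1.87e-06). Loxl2, an enzyme that crosslinks collagen, was higher in Torin D12 at 14.7, 19.4 and 19.4 CPM against 7.33, 6.57 and 5.89 CPM (log2 fold change 1.44, SE 0.15, adjusted p = 5.47e-05). Timp3, an inhibitor of matrix proteases, went the other way, at 3595, 3664 and 2919 CPM in Torin D6, 1387, 1279 and 1683 CPM in Torin D12 and 1014 to 1185 CPM with DMSO (log2 fold change -1.23, SE 0.12, adjusted p = 3.07e-05). Elastin (Eln), the elastic fibre protein, was at 1.63, 1.58 and 1.97 CPM in Torin D6 and 12.6, 13.3 and 11.3 CPM in Torin D12, with 3.64 to 6.896 CPM in DMSO between them (log2 fold change 2.84, SE 0.22, adjusted p = 6.86e-06).

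Among basal markers, 9 of 24 were higher in Torin D12 and 3 lower, with a median of 0.09. The number lower was 0 without the first Torin D12 library, 1 without the second Torin D12, the first Torin D6 or the third Torin D6 library, and 5 without the second Torin D6 library. Krt5, a keratin of basal cells, fell far below DMSO in Torin D6 and less far in Torin D12: it was at 67.03, 71.5 and 87.5 CPM, 378, 349.5 and 408 CPM and 636 to 841 CPM with DMSO (log2 fold change 2.33, SE 0.11, adjusted p = 1.50e-07). Col17a1, which anchors basal cells to the basement membrane, was at 111, 103 and 85.4 CPM in Torin D6 and 336, 289.6 and 249 CPM in Torin D12 (log2 fold change 1.55, SE 0.12, adjusted p = 7.31e-06). Krt15, a keratin of basal and progenitor cells, was at 15.9, 15.6 and 18.6 CPM in Torin D6 and 95.4, 91.9 and 116 CPM in Torin D12, on either side of the 32.5 to 60.04 CPM of DMSO (log2 fold change 2.598, SE 0.18, adjusted p = 2.60e-06). Members of the list did not move as a block. Krt14, the partner keratin of Krt5, was at 724, 666 and 874 CPM and 633, 568 and 925 CPM (adjusted p = 0.743) and was picked out after its values were seen.

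Luminal lists gave different counts. Of 16 pan-luminal genes, 8 were lower in Torin D12 and 1 higher, with a median of -0.42, and 3 were higher without the third Torin D6 library. Krt18, a keratin of all luminal cells, was at 3779.7, 4121 and 3825 CPM in Torin D6, above every DMSO library (2158 to 2823 CPM), and at 2174, 2156 and 2313 CPM in Torin D12 (log2 fold change -0.82, SE 0.09, adjusted p = 1.06e-04). Cdh1, which encodes E-cadherin, was at 827, 789.6 and 809.9 CPM and 467, 407 and 552 CPM, against 483 to 552 CPM with DMSO (log2 fold change -0.77, SE 0.10, adjusted p = 1.84e-04). Muc1, the mucin of the apical surface, was the 1 pan-luminal gene higher in Torin D12, at 21.5, 17.2 and 24.04 CPM against 9.29, 6.87 and 5.16 CPM, with 48.6 to 60.4 CPM in DMSO (log2 fold change 1.56, SE 0.19, adjusted p = 1.67e-04).

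Of 15 hormone-sensing luminal genes, 5 were higher in Torin D12 and 2 lower. Esr1, the estrogen receptor, was at 37.8, 38.6 and 41.6 CPM in Torin D6, 64.8, 59.5 and 46.7 CPM in Torin D12 and 75.7 to 93.4 CPM with DMSO (log2 fold change 0.54, SE 0.11, adjusted p = 0.00413). Cited1, a cofactor of that receptor, was at 19.6, 20.2 and 20.7 CPM and 32.5, 31.8 and 36.04 CPM (log2 fold change 0.73, SE 0.08, adjusted p = 9.96e-05). Areg, the EGF family ligand that estrogen induces in the gland, went the other way: it was at 38.03, 38.8 and 51.00 CPM in Torin D6 and at 9.74, 10.5 and 10.7 CPM in Torin D12, the level of the DMSO libraries (9.604 to 13.5 CPM; log2 fold change -2.05, SE 0.13, adjusted p = 1.63e-06). Of 14 luminal progenitor genes, 4 were higher and 3 lower. Lactoferrin (Ltf), a lower member given in full below, had the largest difference of the list (log2 fold change -4.04). Tspan8, a surface tetraspanin, was at 33.04, 32.8 and 32.5 CPM in Torin D6 and 145, 147 and 163 CPM in Torin D12 (log2 fold change 2.21, SE 0.09, adjusted p = 6.02e-08), and Hey1, a target of Notch, at 58.7, 60.02 and 54.4 CPM and 173, 175 and 176 CPM (log2 fold change 1.599, SE 0.07, adjusted p = 1.55e-07). DMSO libraries held 143 to 178 CPM of Tspan8 and 225 to 266 CPM of Hey1. Both genes fell far below DMSO in Torin D6, and in Torin D12 Hey1 fell less (log2 fold change -0.54, SE 0.07, adjusted p = 2.54e-04) while Tspan8 did not pass (adjusted p = 0.368).

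Of 7 milk genes tested, 2 were higher and 0 lower: Lalba, alpha-lactalbumin, and Csn3, kappa-casein, which was at 306, 248 and 431 CPM in Torin D6 and 654, 673 and 854 CPM in Torin D12 (log2 fold change 1.15, SE 0.19, adjusted p = 0.00131). Squamous keratinization genes had 1 higher and 4 lower of 18, with Klk7, a skin protease, at 0.509, 0.864 and 0.684 CPM and 4.37, 5.38 and 7.07 CPM (log2 fold change 3.03, SE 0.34, adjusted p = 7.70e-05) and Trex2, a nuclease of squamous epithelia, at 14.6, 14.2 and 12.8 CPM and 1.26, 2.05 and 1.504 CPM (log2 fold change -3.11, SE 0.28, adjusted p = 1.79e-05). Tgm1, which crosslinks the cornified envelope, was at 5.22, 5.11 and 5.16 CPM and 2.05, 2.39 and 2.38 CPM (log2 fold change -1.18, SE 0.21, adjusted p = 0.00226). The squamous list as a sum lay below DMSO in both arms, at 108 to 139 CPM in Torin D6 and 72.97 to 118 CPM in Torin D12 against 163 to 242 CPM and 309 to 387 CPM in DMSO D6 and D12.

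Markers of vessels and fat were low. Endothelial markers gave 2 higher and 1 lower of 5, at a summed level of 90.2 to 110.4 CPM in Torin D6 and 63.9 to 75.3 CPM in Torin D12, with Sox17 at 0 in every library. Plvap, a protein of vessel pores, was higher in Torin D12 at 13.2, 13.2 and 12.6 CPM against 3.77, 3.04 and 4.37 CPM (log2 fold change 1.800, SE 0.16, adjusted p = 1.59e-05). Flt1, a receptor of VEGF, was lower (log2 fold change -0.94, SE 0.13, adjusted p = 3.61e-04). Adipocyte markers gave 0 higher and 1 lower of 6, with Lep at 0 in every library, and the lower one was Pnpla2, a lipase that many tissues express (log2 fold change -0.52, SE 0.12, adjusted p = 0.00902).

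Targets of p53, the factor that answers DNA damage and stress with cell cycle arrest or death, were lower in Torin D12 than in Torin D6 for 15 of 20 members and higher for 1, with a median of -0.98. The interaction passed for 15 of 20, all with the more negative effect in D12, against 5.55% of all genes. In Torin D6 11 members rose above DMSO and 1 fell (19.8% and 19.3% of all genes), and in Torin D12 1 rose and 9 fell (10.8% and 14.6%). Eda2r, a receptor of the TNF family, was at 65.8, 73.1 and 60.99 CPM in Torin D6, 19.7, 20.3 and 22.4 CPM in Torin D12 and 24.3 to 27.2 CPM with DMSO (log2 fold change -1.68, SE 0.09, adjusted p = 5.62e-07). Ccng1, a cyclin that p53 induces, was at 473, 465 and 507 CPM and 183, 192 and 225 CPM, on either side of the 279 to 315 CPM of DMSO (log2 fold change -1.27, SE 0.08, adjusted p = 1.89e-06). Cdkn1a, the p21 inhibitor of cyclin-dependent kinases, was at 233, 232 and 264 CPM and 93.6, 92.9 and 104 CPM, with 179 to 229 CPM in DMSO (log2 fold change -1.32, SE 0.10, adjusted p = 5.53e-06). Each of the 3 genes was lower in every Torin D12 library than in every Torin D6 library and every DMSO library, while the Torin D6 libraries overlapped none of the DMSO libraries.

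Genes of G1 control also leaned lower in Torin D12, but by a smaller share than p53 targets, with 7 of 16 lower and 1 higher. Without the third Torin D6 library 3 were higher. Ccnd2, a D-type cyclin, was at 1259, 1303 and 1265 CPM in Torin D6 and 225, 244 and 277 CPM in Torin D12, where it lay in the DMSO range of 219.9 to 329 CPM (log2 fold change -2.36, SE 0.13, adjusted p = 5.27e-07). Ccnd1, another D-type cyclin, was at 2422, 2667 and 2044 CPM in Torin D6 and 1347, 1333 and 1342 CPM in Torin D12, against 1288 to 1327 CPM with DMSO (log2 fold change -0.83, SE 0.09, adjusted p = 6.17e-05). Both cyclins were thus raised in Torin D6 alone among the 4 groups, and the interaction passed for each (adjusted p = 2.68e-05 and 0.00150).

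No mitosis gene passed between the Torin groups. Of 25, 0 were higher and 0 lower in Torin D12 than in Torin D6 (median -0.03), and 0 or 1 in each direction when single libraries were left out, while 25 of 25 fell below DMSO in each arm. Their summed level was 319.6 to 340.3 CPM in Torin D6 and 299 to 345 CPM in Torin D12, against 653 to 704 CPM and 661 to 772 CPM in the DMSO groups. Mki67, the proliferation marker, picked out after the values were seen, differed by a log2 of 0.13 (SE 0.12, adjusted p = 0.480) between the Torin groups. S phase genes had 3 higher and 2 lower of 29 (median 0.03), with Pold3, a DNA polymerase subunit, higher (log2 fold change 0.55, SE 0.08, adjusted p = 4.72e-04) and Tyms, thymidylate synthase, lower (log2 fold change -0.56, SE 0.10, adjusted p = 0.00179).

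Most inflammatory genes were higher in Torin D6. Of 22 members 13 were lower in Torin D12 and 1 higher, with a median of -0.74. Cxcl5, a chemokine that attracts neutrophils, was at 1672, 1268 and 2512 CPM in Torin D6, 444, 376 and 603 CPM in Torin D12 and 187 to 215 CPM with DMSO (log2 fold change -1.94, SE 0.22, adjusted p = 1.06e-04). Ccl20, a chemokine for lymphocytes and dendritic cells, was at 40.9, 35.98 and 62.01 CPM and 11.1, 10.96 and 17.6 CPM, against 4.22 to 7.25 CPM with DMSO (log2 fold change -1.81, SE 0.24, adjusted p = 2.52e-04). In both genes the third Torin library held the highest level of its group, and the groups did not overlap. Ccl5, another chemokine, was at 14.9, 10.97 and 16.7 CPM in Torin D6 and at 3.27, 4.21 and 5.14 CPM in Torin D12, which reached into the DMSO range of 2.64 to 4.31 CPM (log2 fold change -1.75, SE 0.23, adjusted p = 2.64e-04).

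The list of matrix proteases and inhibitors had 10 of 16 members lower in Torin D12 and 2 higher, with a median of -1.16. Mmp3, stromelysin, was at 1711, 1571 and 1498 CPM in Torin D6 and 501, 535 and 673 CPM in Torin D12, with 892 to 1235 CPM in DMSO between them (log2 fold change -1.48, SE 0.13, adjusted p = 1.79e-05). Mmp10, a related stromelysin, was at 251, 242 and 230.4 CPM and 88.7, 86.3 and 91.9 CPM (log2 fold change -1.44, SE 0.15, adjusted p = 5.12e-05), and Adamts1, a protease of proteoglycans, at 281, 238 and 266 CPM and 131, 111 and 131 CPM, with 138 to 199 CPM in DMSO (log2 fold change -1.07, SE 0.10, adjusted p = 2.24e-05).

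Junction genes had 10 of 23 members lower in Torin D12 and 1 higher. Gjb2, a connexin of gap junctions, was at 107, 98.9 and 133 CPM in Torin D6 and 19.5, 22.6 and 23.8 CPM in Torin D12 (log2 fold change -2.36, SE 0.18, adjusted p = 5.60e-06), with 81.9 to 137 CPM in DMSO D6 and 176 to 206 CPM in DMSO D12. Cldn1, a claudin of tight junctions, was at 59.7, 56.00 and 84.1 CPM and 17.00, 15.3 and 19.1 CPM, with 41.1 to 75.1 CPM in DMSO (log2 fold change -1.96, SE 0.16, adjusted p = 1.04e-05). Its rise above DMSO in Torin D6 was lost without the first DMSO D6 library (adjusted p = 0.0680) or the third (0.0619). Gjb2 and Cldn1 lay lower in Torin D12 than in every other library.

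Cholesterol synthesis depends on SREBP2, which mTORC1 favours. Of 25 members 17 were lower in Torin D12 and 1 higher, by modest amounts (median -0.47). Hmgcs1, the synthase at the head of the mevalonate pathway, was at 172, 189 and 181 CPM in Torin D6, inside the DMSO range of 169 to 191 CPM, and at 117, 113 and 126 CPM in Torin D12 (log2 fold change -0.61, SE 0.06, adjusted p = 5.47e-05). Fdps, which makes farnesyl diphosphate, was at 212, 219.9 and 237 CPM and 141, 147 and 159 CPM (log2 fold change -0.58, SE 0.07, adjusted p = 9.60e-05). The letters TCACNCCAC of the sterol response element were in 1 of 17 promoters found for the list (5.88%), against 1.44% of 27025 genes. Fatty acid genes leaned the other way, with 7 of 20 higher in Torin D12 and 2 lower. Fads1, a desaturase, was at 90.8, 96.6 and 88.8 CPM and 181, 177 and 165 CPM (log2 fold change 0.92, SE 0.06, adjusted p = 1.69e-06), Dgat2, which completes triglycerides, at 13.6, 11.98 and 13.4 CPM and 28.7, 30.1 and 30.8 CPM (log2 fold change 1.198, SE 0.11, adjusted p = 1.52e-05), and Acly, which makes cytosolic acetyl-CoA, was lower in Torin D12 (log2 fold change -0.62, SE 0.06, adjusted p = 5.05e-05).

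Ribosome biogenesis genes stood above DMSO in both arms, and less so in Torin D12. Of 40 members 39 rose in Torin D6 (19.8% of all genes rose) and 34 in Torin D12 (10.8% of all genes rose), and between the Torin groups 18 were lower in D12 and 0 higher (median -0.31). Ddx21, a helicase of the nucleolus, was at 98.4, 99.9 and 97.6 CPM in Torin D6, 64.4, 60.3 and 67.98 CPM in Torin D12 and 32.2 to 39.5 CPM with DMSO (log2 fold change -0.62, SE 0.08, adjusted p = 2.52e-04), and the 3 ranges did not overlap. Bysl, a factor of the small ribosomal subunit, had the same order at 48.3 to 52.4 CPM, 29.2 to 35.4 CPM and 19.6 to 23.5 CPM (log2 fold change -0.64, SE 0.10, adjusted p = 7.33e-04).

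Targets of NRF2, the factor of the antioxidant response, had 9 of 18 lower in Torin D12 and 1 higher. Without the first Torin D12 library 5 were lower. The interaction passed for fewer, 4 of 18 with the more negative effect in D12 and 1 with the more positive (5.55% and 5.03% of all genes). Gsta4, a glutathione transferase, was at 41.3, 33.7 and 40.7 CPM in Torin D6 and at 4.07, 2.84 and 4.51 CPM in Torin D12, the DMSO level of 3.73 to 5.67 CPM (log2 fold change -3.34, SE 0.21, adjusted p = 1.30e-06). Slc7a11, the cystine importer, was at 35.1, 44.3 and 29.5 CPM and 9.05, 4.397 and 9.73 CPM (log2 fold change -2.23, SE 0.25, adjusted p = 9.68e-05). Nqo1, a quinone reductase and a standard marker of NRF2, was the 1 member that was higher in Torin D12, at 136, 133 and 134 CPM against 57.2, 55.8 and 63.2 CPM, and 196 to 243 CPM with DMSO (log2 fold change 1.19, SE 0.08, adjusted p = 1.69e-06).

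Genes of ATF4 and amino acid supply were split evenly, 8 higher and 8 lower of 30, with log2 fold changes from -2.49 to 1.42. The 3 members named here had the lowest p, and all were lower in Torin D12. Phgdh, the first enzyme of serine synthesis, was at 158, 158 and 153 CPM in Torin D6, 72.7, 72.5 and 75.05 CPM in Torin D12 and 42.7 to 52.3 CPM with DMSO (log2 fold change -1.09, SE 0.08, adjusted p = 2.54e-06). Sesn2, a leucine sensor that restrains mTORC1, was at 78.5, 75.2 and 56.5 CPM in Torin D6 and 32.7, 32.6 and 33.4 CPM in Torin D12 (log2 fold change -1.09, SE 0.12, adjusted p = 5.53e-05), and Nupr1, a stress regulator of chromatin, at 897, 913 and 793 CPM and 428, 423 and 476 CPM (log2 fold change -0.97, SE 0.09, adjusted p = 1.54e-05). Of 40 lysosome genes 12 were lower in Torin D12 and 5 higher. Without the third Torin D6 library 7 were lower, and without the second Torin D12 library 3 were higher. Ctsh, a cathepsin, was at 323, 326 and 345 CPM and 154, 166 and 192 CPM, with 241 to 302 CPM in DMSO (log2 fold change -0.95, SE 0.09, adjusted p = 2.33e-05). Ctsd, another cathepsin, was at 2625, 2519.7 and 2665 CPM and 1761, 1694 and 1844 CPM (log2 fold change -0.56, SE 0.07, adjusted p = 2.34e-04).

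Lists of autophagy and oxidative phosphorylation gave few calls. Autophagy genes had 2 higher and 1 lower of 32, but 5 were higher without the second Torin D6 library and 6 were lower without the third Torin D12 library. Nuclear genes of oxidative phosphorylation had 3 higher and 4 lower of 33, with 2 to 7 lower when single libraries were left out. Of 13 genes of the mitochondrial genome 2 were lower, mt-Nd1 (adjusted p = 0.0429) and mt-Nd3 (adjusted p = 0.0475), both lost without 10 of the 12 libraries in turn. The number lower was 5 without the second Torin D6 library and 4 without the third Torin D12 library. The unfolded protein response had 2 higher and 3 lower of 20, and 1 was lower without the first Torin D12, the second Torin D12 or the first Torin D6 library. Manf, a chaperone-like factor of the endoplasmic reticulum, differed by a log2 of -0.33 (SE 0.06, adjusted p = 0.00239). Xbp1, a transcription factor of that response and of secretory cells, was at 941, 954 and 889 CPM in Torin D6, 1388, 1571 and 1362 CPM in Torin D12 and 2391 to 2801 CPM with DMSO (log2 fold change 0.63, SE 0.08, adjusted p = 2.94e-04).

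Local signals include the Notch, Wnt and BMP pathways and the EGF family. Of 22 Notch, Wnt and BMP genes 4 were higher in Torin D12 and 8 lower, and 2 were higher without any 1 of the Torin D12 libraries. Bmp4, a BMP ligand, was at 11.6, 9.09 and 9.798 CPM in Torin D6 and at 0.266, 0.417 and 0.6998 CPM in Torin D12, with DMSO at 0.134 to 0.583 CPM (log2 fold change -4.44, SE 0.42, adjusted p = 2.36e-05). Wnt10a, a Wnt ligand, was at 42.3, 42.4 and 49.98 CPM in Torin D6 and 18.1, 18.1 and 18.7 CPM in Torin D12 (log2 fold change -1.29, SE 0.12, adjusted p = 2.48e-05). Lgr5, a receptor that strengthens Wnt signals and marks stem cells in several epithelia, went the other way at 1.900, 2.59 and 2.51 CPM and 20.6, 14.1 and 16.4 CPM (log2 fold change 2.87, SE 0.28, adjusted p = 3.28e-05). Among 20 genes of the EGF family and ERK feedback, 4 were higher and 6 lower, with 2 higher without the first or the second Torin D12 library. Ereg, a ligand of the EGF receptor, was at 28.1, 26.2 and 36.4 CPM and 10.3, 12.1 and 12.7 CPM (log2 fold change -1.37, SE 0.17, adjusted p = 1.99e-04), while Etv5, a transcription factor that ERK induces, was higher in Torin D12 (log2 fold change 0.58, SE 0.08, adjusted p = 2.73e-04).

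Transcripts of the target of the drug and of its partners differed by small amounts. Mtor itself was at 52.00, 51.3 and 32.7 CPM in Torin D6 and 41.4, 42.8 and 37.8 CPM in Torin D12 (log2 fold change -0.16, SE 0.15, adjusted p = 0.504). Without the third Torin D6 library its log2 fold change was -0.32 with an adjusted p of 0.0287. Rptor, the scaffold of mTORC1, had an adjusted p of 0.0988 between the Torin groups (-0.31 on the log2 scale), and without the second Torin D6 library one of 0.0389. Rictor, the scaffold of mTORC2, was slightly lower in Torin D12 (log2 fold change -0.39, SE 0.11, adjusted p = 0.0253), a call lost without the first Torin D6 library (adjusted p = 0.105), the second Torin D12 library (0.105) or the third (0.0507). Deptor, an inhibitor of both complexes, was at 651, 725 and 679 CPM and 945, 891 and 744 CPM (log2 fold change 0.33, SE 0.09, adjusted p = 0.0205). That call was lost without 3 of the 12 libraries in turn, and the log2 fold change was 0.06 (adjusted p = 0.816) with length factors recovered from the authors' normalized values and 0.05 (adjusted p = 0.864) with limma on those values. Eif4ebp1, the translation repressor that mTORC1 inactivates, was at 88.7, 102 and 83.1 CPM and 115, 126 and 107 CPM (log2 fold change 0.34, SE 0.11, adjusted p = 0.0395), a call lost without 7 of the 12. Sqstm1, an autophagy receptor, and Irs2, an insulin receptor substrate, had adjusted p values of 0.0790 and 0.335 (log2 -0.36 and -0.26). Sqstm1 passed without the second Torin D6 library (adjusted p = 0.0248), without the third Torin D12 library (0.0228) and without the third Torin library of both arms (0.0159). Of 33 genes of the pathway 4 were higher and 7 lower. Leaving out single libraries gave 1 to 4 higher and 3 to 8 lower, with the fewest without the second Torin D12 library. The clearest was Rragd, a GTPase that carries the amino acid signal at the lysosome, at 12.7, 14.01 and 14.1 CPM in Torin D6, 2.700, 2.31 and 1.33 CPM in Torin D12 and 0.991 to 1.55 CPM with DMSO (log2 fold change -2.69, SE 0.24, adjusted p = 1.76e-05). Of 24 FOXO and insulin receptor feedback genes 4 were higher and 1 lower, with 7 higher without the third Torin D6 library. Pik3r1, a regulatory subunit of PI3 kinase, was at 236, 258 and 193 CPM and 437, 410.4 and 361 CPM (log2 fold change 0.81, SE 0.11, adjusted p = 2.72e-04).

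The sides of DMSO on which the Torin groups stood were then compared. Both arms passed against their own DMSO for 3260 genes. Of these, 1275 (7.04% of all genes tested) rose in both arms and 1812 (10% of all) fell in both. The remaining 173 (0.955% of all) lay on opposite sides, which is 5.31% of the genes that passed in both arms. Among the 173, 111 (0.613%) rose in Torin D6 and fell in Torin D12, and 62 (0.342%) fell in Torin D6 and rose in Torin D12. The direct comparison passed for 172 of them. All 6 DMSO libraries lay strictly between the Torin groups for 63 of the 111 and 40 of the 62. Without the test, that order was found for 103 genes (0.569%) and 79 genes (0.436%). At least 2-fold differences from DMSO in both arms were found for 15 and 10 genes. The counts depended on the libraries used. Without the third Torin library of both arms they were 210 and 170. Left out alone, the first DMSO D12, the third DMSO D12 or the first Torin D12 library reduced the 111 to 71, 73 or 69. The third DMSO D6 or the first DMSO D12 library reduced the 62 to 38 or 37, and without the third Torin D6 library there were 106.

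**Figure D4:**
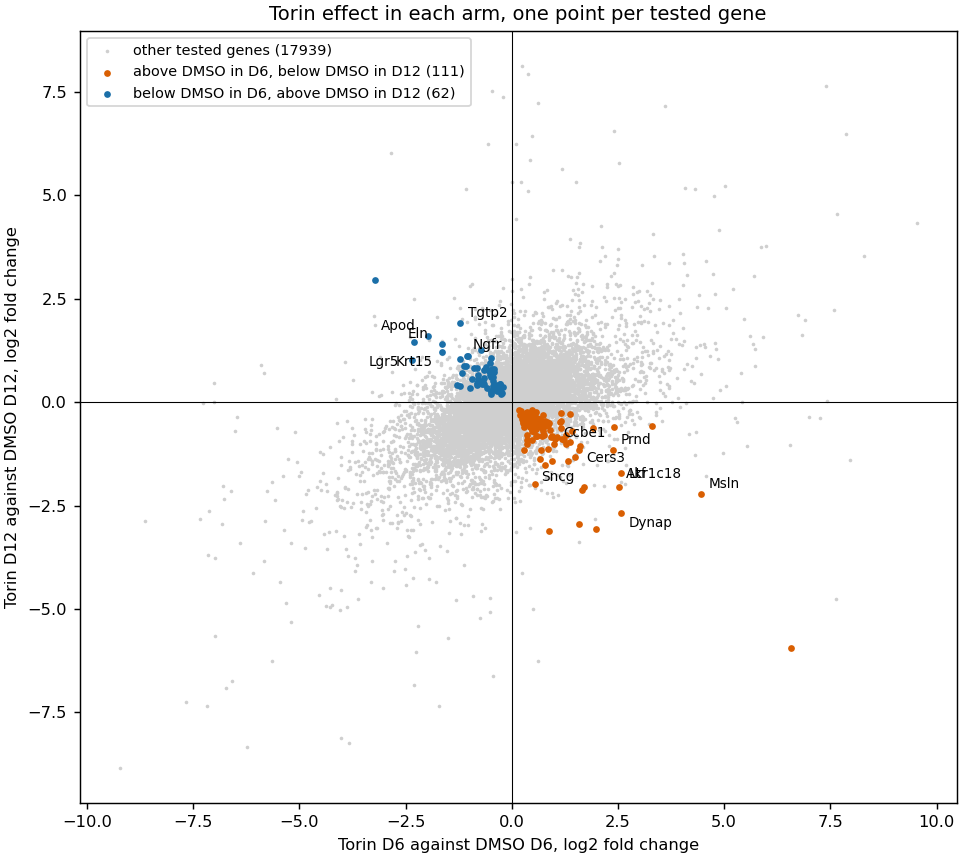
Log2 fold change of Torin against DMSO in the D6 arm (x axis) and in the D12 arm (y axis), one point per tested gene. Coloured points passed an adjusted p of 0.05 in both arms on opposite sides of DMSO, 111 in orange and 62 in blue, and names mark genes of at least 5 CPM whose smaller effect was largest. The coloured points lie at the lower right and upper left, where the arms differ in sign.

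Msln, mesothelin, a surface protein of mesothelium and of several carcinomas, gave the widest span of the 16 genes selected. It was at 49.1, 41.99 and 34.1 CPM in Torin D6, 0.456, 0.417 and 1.33 CPM in Torin D12 and 1.48 to 4.16 CPM with DMSO (log2 fold change 4.46, SE 0.38, adjusted p = 3.24e-06 in the D6 arm and log2 fold change -2.22, SE 0.40, adjusted p = 0.00167 in the D12 arm). Its libraries did not overlap between any Torin group and DMSO. Akr1c18, which breaks down progesterone, was at 49.9, 53.2 and 39.2 CPM in Torin D6 and 2.28, 1.82 and 2.13 CPM in Torin D12, with DMSO at 7.18 to 9.79 CPM (log2 fold change -4.51, SE 0.17, adjusted p = 6.02e-08 between the Torin groups). Ltf, lactoferrin, an iron-binding protein of milk and of luminal progenitors, was at 184, 116 and 173 CPM and 8.06, 9.67 and 10.9 CPM, with DMSO at 25.6 to 33.7 CPM (log2 fold change -4.04, SE 0.18, adjusted p = 1.38e-07). For both genes all 6 DMSO libraries lay between the Torin groups. Dynap, a transmembrane protein, was at 14.7, 12.1 and 18.04 CPM in Torin D6 and 0.875, 0.607 and 1.400 CPM in Torin D12, with DMSO at 1.66 to 9.46 CPM (log2 fold change -3.95, SE 0.45, adjusted p = 9.55e-05).

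Smaller spans were found for the other genes of this direction. Prnd, a relative of the prion protein, was at 17.9, 21.2 and 12.3 CPM and 2.81, 2.69 and 2.099 CPM (log2 fold change -2.76, SE 0.32, adjusted p = 1.01e-04), and its fall against DMSO D12 was lost without the third DMSO D12 library (adjusted p = 0.0801) or the third Torin D12 library (0.0580). Its Torin D12 range reached into that of DMSO D6 (2.64 to 4.43 CPM) but not of DMSO D12 (3.895 to 7.99 CPM). Cers3, a ceramide synthase of barrier epithelia, was at 15.6, 14.3 and 11.6 CPM and 4.07, 3.71 and 3.22 CPM (log2 fold change -1.91, SE 0.23, adjusted p = 1.62e-04) and also reached into the DMSO D6 range (3.19 to 5.41 CPM). Ccbe1, a secreted factor of lymphatic growth, was at 15.2, 17.1 and 12.2 CPM and 3.99, 2.77 and 5.32 CPM (log2 fold change -1.88, SE 0.21, adjusted p = 9.55e-05), and Sncg, gamma-synuclein, at 24.6, 17.02 and 24.6 CPM and 5.51, 5.04 and 6.298 CPM (log2 fold change -1.97, SE 0.19, adjusted p = 3.30e-05). The fall of Ccbe1 against DMSO D12 was lost with the recovered length factors (adjusted p = 0.0804) and with limma on the deposited normalized values (0.0651).

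In the other direction, Apod, apolipoprotein D, a secreted lipid carrier, was at 26.6, 19.5 and 33.9 CPM in Torin D6, 81.1 to 123 CPM with DMSO and 260.3, 275 and 305 CPM in Torin D12 (log2 fold change -1.98, SE 0.18, adjusted p = 4.60e-06 in the D6 arm and log2 fold change 1.61, SE 0.17, adjusted p = 4.95e-05 in the D12 arm). The 3 ranges did not overlap. Ngfr, the p75 neurotrophin receptor that also marks basal cells, was at 12.3, 13.97 and 9.53 CPM and 40.96, 45.7 and 35.1 CPM, with DMSO at 16.7 to 26.9 CPM (log2 fold change 1.76, SE 0.16, adjusted p = 1.79e-05). Lgr5 and Eln, given above, behaved likewise, with Lgr5 at 6.41 to 14.4 CPM in DMSO. Lgr5 lost its rise against DMSO D12 without the first DMSO D12 library (adjusted p = 0.0635), without the third (0.0553) and without the first Torin D12 library (0.0577). Tgtp2, an interferon-induced GTPase with a near-identical copy, was at 5.94, 6.46 and 4.25 CPM in Torin D6 and 28.6, 63.2 and 36.5 CPM in Torin D12, with DMSO at 8.94 to 13.8 CPM (log2 fold change 2.94, SE 0.28, adjusted p = 2.99e-05). Lalba was at 7.09, 6.12 and 8.81 CPM and 21.4, 21.6 and 25.2 CPM (log2 fold change 1.63, SE 0.20, adjusted p = 1.75e-04), and Pcdhb9, one of a family of similar protocadherins, at 5.02, 4.77 and 3.91 CPM and 13.3, 13.9 and 11.2 CPM (log2 fold change 1.49, SE 0.19, adjusted p = 2.37e-04).

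**Figure D5:**
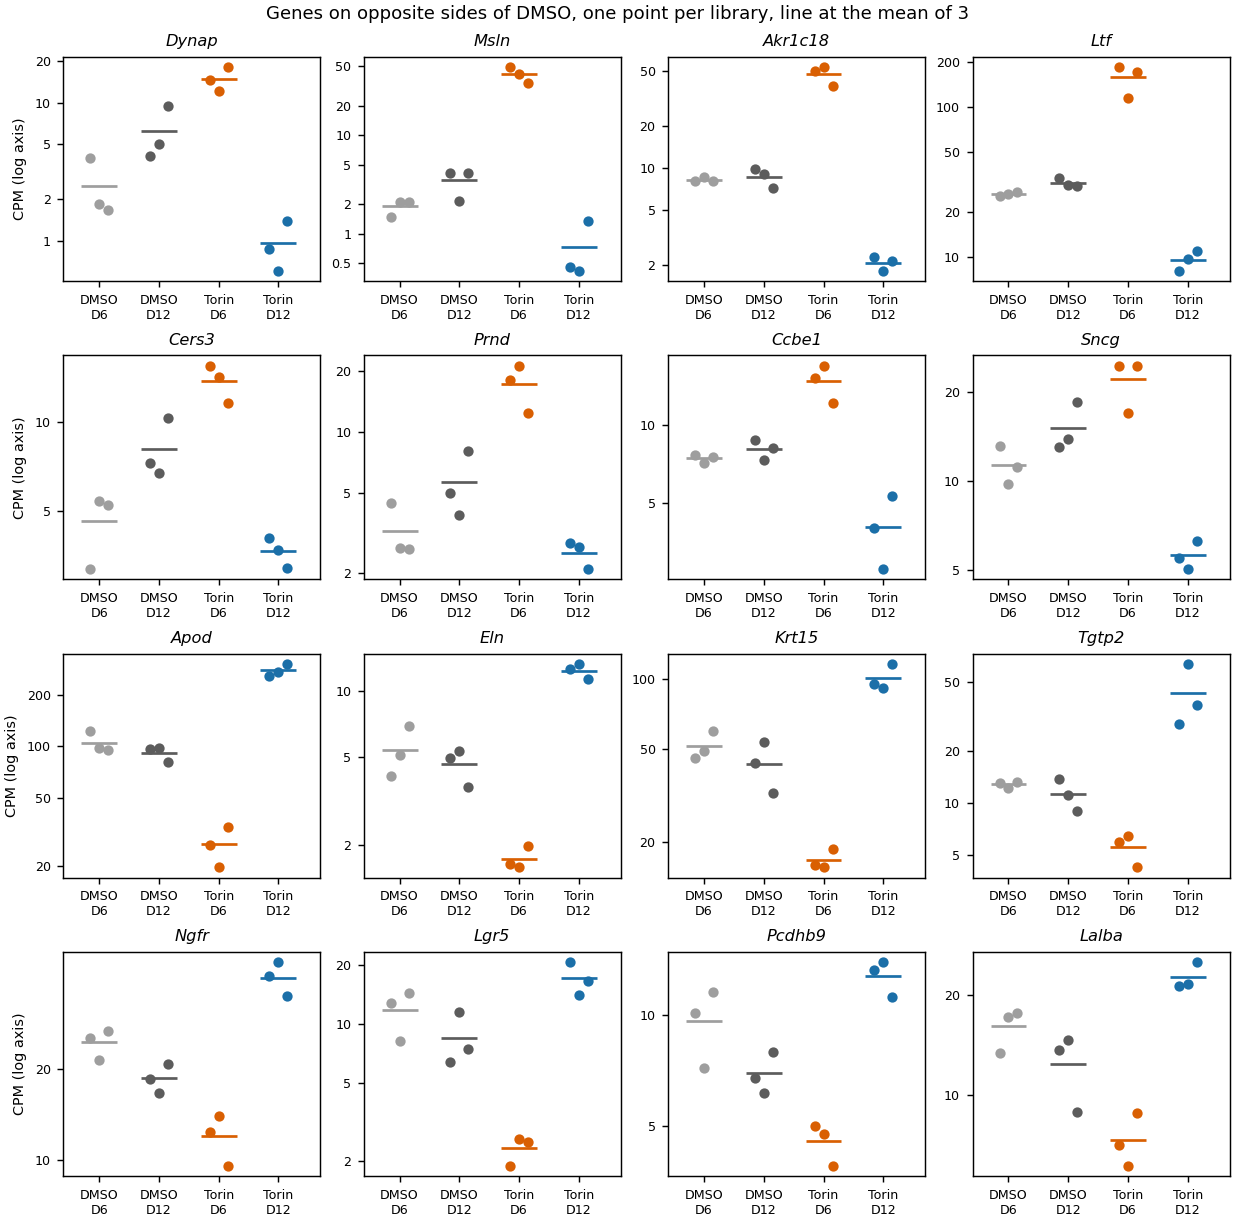
CPM on a log axis for the 16 genes named for opposite sides of DMSO, one point per library and a line at the mean of 3. In the upper 8 genes Torin D6 is the highest and Torin D12 the lowest group, and in the lower 8 the order is reversed, with Msln from 49.1 to 0.417 CPM as the widest span.

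Over all genes tested, 173 of 18112 (0.955%) lay on opposite sides. The fixed lists held 759 tested members, with a gene on more than 1 list counted in each. Members of the fixed lists on opposite sides numbered 29 in all, with each gene counted once. Those above DMSO in Torin D6 and below it in Torin D12 came from luminal genes (Ltf, Krt18, Krt7 and Ovol1), p53 targets (Eda2r, Ccng1 and Cdkn1a), matrix genes (Mmp3, Adamts1, Ccn1 and Loxl4), lipid synthesis (Acly, Fdps, Fdft1 and Msmo1), Asns, Ctsh, Hbegf, Cldn1 and Cldn6. Those below DMSO in Torin D6 and above it in Torin D12 were Krt15, Lalba, Col6a1, Col14a1, Pdgfrb, Fbn1, Mmp2, Lgr5 and Msx1. Several of these calls were slight. The rise of Cdkn1a in Torin D6 (0.29 on the log2 scale, adjusted p = 0.0405), the fall of Eda2r in Torin D12 (-0.29, adjusted p = 0.0409) and the rise of Mmp2 in Torin D12 (0.34, adjusted p = 0.0414) were lost with a replicate block, at adjusted p values of 0.0644, 0.0716 and 0.0696. The fall of Krt18 in Torin D12 (-0.30, adjusted p = 0.0355) was lost likewise, at 0.0532. Left out one at a time, 8 of the 12 libraries ended the call for Cdkn1a, 7 for Eda2r, 7 for Mmp2 and 6 for Krt18. Krt7, a luminal keratin, kept its calls in every alternative run, at 375, 349 and 439 CPM and 191, 174 and 242 CPM, with DMSO at 225 to 309.7 CPM, and so did Col14a1, a fibril-associated collagen, at 31.5, 26.3 and 29.6 CPM and 50.2, 46.8 and 45.4 CPM. Its Torin D6 libraries lay below those of DMSO D6 (36.8 to 45.2 CPM) and overlapped those of DMSO D12 (25.5 to 29.8 CPM).

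The other members on opposite sides had narrower spans. Asns, which makes asparagine, was at 77.5, 77.04 and 77.4 CPM in Torin D6, 54.6 to 78.1 CPM with DMSO and 47.2, 42.4 and 50.5 CPM in Torin D12 (log2 fold change -0.73, SE 0.10, adjusted p = 4.42e-04). Ccn1, a secreted matrix factor induced by YAP, was at 209, 188 and 280.1 CPM and 92.6, 90.2 and 110.5 CPM, with DMSO at 121 to 169 CPM (log2 fold change -1.21, SE 0.14, adjusted p = 1.26e-04). Hbegf, a ligand of the EGF receptor, was at 57.3, 58.9 and 66.7 CPM and 36.7, 32.3 and 36.9 CPM, with DMSO at 36.9 to 57.8 CPM (log2 fold change -0.79, SE 0.11, adjusted p = 4.63e-04). These genes were lower in Torin D12. The rise of Hbegf against DMSO D6 was lost with the recovered length factors (adjusted p = 0.0511) and with limma on the deposited normalized values (0.0688). Cldn6, a claudin of developing epithelia, was at 7.87, 7.74 and 12.5 CPM and 3.61, 2.43 and 3.39 CPM, with DMSO at 4.12 to 7.43 CPM (log2 fold change -1.57, SE 0.26, adjusted p = 0.00118). Msmo1, a sterol oxidase, was at 151 to 234 CPM in Torin D6, 130.2 to 142 CPM with DMSO and 78.4 to 109.7 CPM in Torin D12 (log2 fold change -1.07, SE 0.15, adjusted p = 3.98e-04). The fall of both in Torin D12 was lost without some single libraries, 2 for Cldn6 and 3 for Msmo1. Ovol1, Loxl4, Fdft1, Col6a1, Fbn1 and Msx1 lost a call against DMSO without 4 to 6 of the 12 libraries in turn. Their direct differences were -1.38 for Ovol1, a transcription factor of epithelial fate, -1.73 for Loxl4, which crosslinks collagen, -0.58 for Fdft1, squalene synthase, 1.22 for Col6a1 and 1.00 for Fbn1, proteins of matrix fibrils, and 1.84 for Msx1, a homeobox factor, on the log2 scale.

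The remaining genes with the largest falls from Torin D6 to Torin D12 were raised in Torin D6 and near DMSO in Torin D12. Sod3, the extracellular superoxide dismutase, was at 114, 96.04 and 99.4 CPM in Torin D6, 4.298, 7.54 and 9.13 CPM in Torin D12 and 5.74 to 8.83 CPM with DMSO (log2 fold change -3.88, SE 0.25, adjusted p = 1.63e-06). Mcpt8, a protease best known from basophils, was at 56.2, 41.6 and 71.4 CPM and 2.51, 2.43 and 5.42 CPM, with DMSO at 0.761 to 1.87 CPM (log2 fold change -4.02, SE 0.40, adjusted p = 3.76e-05). Soga3 was at 27.3, 29.1 and 66.6 CPM, with the highest level in the third Torin D6 library, and at 0.456, 2.199 and 0.6998 CPM (log2 fold change -5.196, SE 0.54, adjusted p = 5.05e-05). Eya1, a developmental transcription cofactor, was at 12.1, 8.34 and 11.8 CPM and 0.799, 1.02 and 0.455 CPM (log2 fold change -3.83, SE 0.58, adjusted p = 6.83e-04), and Ctla2a, a protease inhibitor with a near-identical copy, at 10.2, 10.1 and 10.4 CPM and 0.837, 0.9098 and 0.6998 CPM (log2 fold change -3.64, SE 0.49, adjusted p = 3.23e-04). In Torin D12 none of these but Mcpt8 passed against DMSO D12, where Mcpt8 had a log2 fold change of 1.600 (adjusted p = 0.0158).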

How the data were processed

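Polyadenylated RNA of 12 organoid cultures, 3 in each of 4 groups, was sequenced from directional libraries with paired ends, per the labels' protocols. The authors deposited a table of raw counts for 56893 genes and a table of DESeq2-normalized values, here treated as a signal. The build GRCm39 and the programs kallisto and DESeq2, with Trim Galore and cutadapt for trimming and FastQC and MultiQC for quality reports, are named without versions, per the submitters' processing notes. Since kallisto estimates counts, the whole numbers may be rounded.

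From the deposited counts, 37012 genes had at least 1 count and 18112 passed filterByExpr of edgeR 4.0.16 (R 4.3.3). These were TMM-normalized and fitted with group means over all 12 libraries in edgeR's quasi-likelihood framework, and p-values were adjusted by Benjamini and Hochberg's method over all 18112 genes and a threshold of 0.05. CPM are TMM-normalized, and the SE is the fold change over the root of the F statistic. The common biological coefficient of variation was 20.2%. Depth was 23239364 to 28910688 counts. No pair of libraries had identical counts. On simulated data for the direct comparison, the test called 45 of 50 genes made 4-fold lower and 35 of 50 made 2-fold lower. It called 39 of 50 made 2-fold higher, 48 of 50 made 4-fold higher and 4 unchanged genes, of 17643 genes. Counts were drawn from the fitted model, with equal means in all groups for unchanged genes, and only genes above a minimum count were changed. The simulation therefore does not show how the test performs on the real libraries. Alternatives used DESeq2 1.42.0, limma 3.58.1 (pseudocount 1, mean value of at least 10, on the deposited normalized signal), other scalings, filters and thresholds, a replicate block and each library left out.

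The groups, gene lists and tests were chosen with earlier results of these data known. Genes were named by rule: the 10 largest differences each way among genes of at least 5 CPM whose Torin groups did not overlap; the 8 with the largest smaller effect on each pair of opposite sides; up to 3 members of each list with the lowest p; list members on opposite sides; and 8 genes of the mTOR pathway. Other genes named were picked after their values were seen. Replicate numbers were not used to pair the libraries, and correlations of same-numbered deviations ran from -0.094 to 0.093. Differently numbered libraries were not compared, so these values do not show whether same-numbered libraries share a source. Promoters came from RefSeq (GRCm38.p6). The 6 libraries of the estradiol experiment were not used. Results for 2 genes that the rule names are not reported here.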

Additional observations from a re-analysis of the deposited data

Results flagged for a closer look

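The Torin effect differed between the arms for 911 genes that had the more positive log2 effect in D12 and 1006 that had the more negative one, by edgeR's interaction test at an adjusted p under 0.05. The 16 genes named for opposite sides of DMSO were picked because the arms differ in sign, so their interaction values describe the size of the difference and are no separate evidence. Genes above DMSO in Torin D6 and below it in Torin D12 had D12 minus D6 effects, on the log2 scale, of -6.68 for Msln, -5.25 for Dynap, -4.58 for Akr1c18, -4.28 for Ltf, -3.54 for Prnd, -2.73 for Cers3, -2.39 for Sncg and -2 for Ccbe1. Genes below DMSO in Torin D6 and above it in Torin D12 had 3.59 for Apod, 3.35 for Lgr5, 3.13 for Tgtp2, 3.05 for Eln, 2.85 for Krt15, 2.16 for Ngfr, 2.01 for Lalba and 1.96 for Pcdhb9. The arms also differ in batch tag and in the start and length of treatment, which cannot be told apart.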

How the results depend on the processing

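Direct counts were 1827 higher and 1902 lower. With adjusted p under 0.01 they were 999 and 990, at 2-fold or more 647 and 609, and in a fit of the compared groups alone 910 and 895. Torin D6 against DMSO gave 2141 higher at 0.01, and 1321 higher and 1570 lower at 2-fold. Torin D12 against DMSO gave 1076 and 1657 at 0.01, 506 and 902 at 2-fold, and 3243 higher without the third Torin library of both arms. The interaction gave 399 and 443 at 0.01, 503 and 438 at 2-fold, 1759 and 1549 without those libraries, and 643 lower with limma. Opposite sides gave 46 and 21 at 0.01, 15 and 10 at 2-fold, 210 and 170 without those libraries, and 41 below DMSO in D6 with limma. DMSO D12 against D6 gave 2 higher and 2 lower without a filter, 7 and 6 with DESeq2, 6 and 8 without those Torin libraries and 8 and 8 in a fit of both DMSO groups alone. The causes were not tested.

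Leaving out single libraries gave 1303 to 1999 higher and 1212 to 2398 lower in the direct comparison, where the first and the second Torin D12 library lowered the second count to 1212 and 1245. Torin D6 against DMSO gave 2658 to 3733 higher and 2903 to 3661 lower. Torin D12 against DMSO gave 1325 to 2940 higher, the most without the third Torin D6 library, and 1936 to 3052 lower. The interaction gave 596 to 1246 higher and 623 to 1235 lower, with 596 and 623 without the third DMSO D6 library, and 644 and 669 lower without the first and the second Torin D12 library. Opposite sides gave 69 to 157 and 37 to 106, and DMSO D12 against D6 0 to 1 higher and 1 to 1 lower.

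Replicate numbers were not used to pair the libraries in the main fit (same-number correlations -0.094 to 0.093). Whether same-numbered libraries share a source was not tested. With the replicate block the direct counts were 1650 and 1622, Torin D6 against DMSO 3148 and 3346, Torin D12 against DMSO 1745 and 2463, the interaction 732 and 781, opposite sides 88 and 52, and DMSO D12 against D6 0 and 1. Over the named genes, 4388 results under alternatives kept direction and call, 185 kept direction and lost the call, 5 gained one and 0 reversed. Genes near 0 CPM rest on few reads, such as 11 over the 3 Torin D6 libraries for Mgarp.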
